A study of Mus musculus with 9 samples.

Results

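Oxidative phosphorylation (OXPHOS) was described through the nuclear genes that encode subunits of complexes I to V of the inner mitochondrial membrane. The genes were taken by name, as symbols that begin with Ndufa, Ndufb, Ndufc, Ndufs or Ndufv and a digit, with Uqcr, with Cox4i, Cox5, Cox6, Cox7 or Cox8, or with Atp5, together with Sdha, Sdhb, Sdhc and Sdhd. Such a name was carried by 82 of the 18423 genes measured, and 73 of them reached an FPKM (fragments per kilobase of transcript, scaled to library depth) of at least 1 in at least 3 of the 9 libraries. By name, 36 of these 73 belong to complex I, 4 to complex II, 8 to complex III, 12 to complex IV and 13 to complex V. The name is not always the place: the product of Ndufa4 is now counted as a complex IV subunit, Cox7a2l encodes an assembly factor of respiratory supercomplexes, and Atp5s (Dmac2l in RefSeq) is no structural part of complex V.

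Complex I oxidises NADH and complex II oxidises succinate, and both hand electrons to coenzyme Q. Complex III passes them on to cytochrome c, complex IV gives them to oxygen, and complexes I, III and IV pump protons whose return through complex V drives ATP synthesis. Acid secretion by parietal cells of the stomach corpus uses much ATP, and these cells are packed with mitochondria. A few core subunits are encoded by mitochondrial DNA. Those genes were not analysed here.

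The libraries hold poly(A) RNA of glands from the mouse stomach corpus, scraped off after EDTA from the tumour region or, in normal stomachs, from the corresponding area. Arid1a_Het mice (3 libraries) were Atp4bCre; Rosa26NICD; Arid1aflox/+, Ctrl mice (3 libraries) were Atp4bCre; Rosa26NICD, and the third group was wild type (WT, 3 libraries). Arid1a_Het and Ctrl thus share a Cre recombinase driven by the promoter of Atp4b, a proton pump gene of parietal cells, and a Rosa26 allele that expresses the intracellular domain of Notch (NICD), and Arid1a_Het adds 1 loxP-flanked copy of the chromatin remodelling gene Arid1a. The series title names the dosage of Arid1a in gastric tumours as its subject, and the labels give neither strain nor age. Whether a group's 3 libraries represent different animals is not stated, so a p-value here reflects library-to-library spread, part of which may be technical. Arid1a_Het 3 was deposited as a separate registration, whose effect was not tested.

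Depth was 22651385 to 29478481 reads per library. Arid1a ran from 5.90 to 8.94 FPKM across Arid1a_Het libraries, from 13.3 to 16.2 FPKM across Ctrl libraries and from 7.79 to 13.5 FPKM across WT libraries, so that WT 2 lay within the Arid1a_Het range. Stomach markers were present in every library, with a summed FPKM of 6 pit cell markers of at least 36872. Pancreas markers summed to 3320 FPKM in Ctrl 1 and 1289 in Arid1a_Het 3, against 2.12 to 16.7 FPKM in the other 7 libraries. In whole-tissue RNA of this kind, fewer cells of a type and less RNA per cell cannot be told apart.

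The subunit genes were among the well-expressed genes of these glands. Over the 9 libraries their mean FPKM ran from 1.39 to 673, with a median of 106. The highest were Cox6a1, Cox6b1, Cox4i1 and Cox5a of complex IV and Atp5a1 and Atp5b, the alpha and beta subunits that form the catalytic head of complex V. Cox6b1 had 540, 787 and 550.4 FPKM in Arid1a_Het, 491, 547 and 454 FPKM in Ctrl, and 552, 1075 and 699 FPKM in WT. Atp5b had 559, 616 and 501 FPKM in Arid1a_Het, 506, 536 and 442 FPKM in Ctrl, and 649, 857 and 683 FPKM in WT. WT 2 was the highest library for both genes and Ctrl 3 the lowest.

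That ranking of libraries held for most of the set. WT 2 had the highest level of 67 of the 73 genes and Ctrl 3 the lowest level of 61. Together the 73 genes took 1.54%, 2.01% and 1.56% of the reads in Arid1a_Het, 1.49%, 1.62% and 1.26% of those in Ctrl, and 1.77%, 2.77% and 1.98% of those in WT. The Ctrl libraries lay below every WT library, and the Arid1a_Het libraries overlapped both groups. With the 50 most-read genes taken out of each total, a count chosen after seeing the data, the Arid1a_Het shares were 1.44%, 2.27% and 1.46%, the Ctrl shares 1.36%, 1.54% and 1.16%, and the WT shares 1.62%, 3.23% and 1.93%, with Ctrl again below WT.

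**Figure D1:**
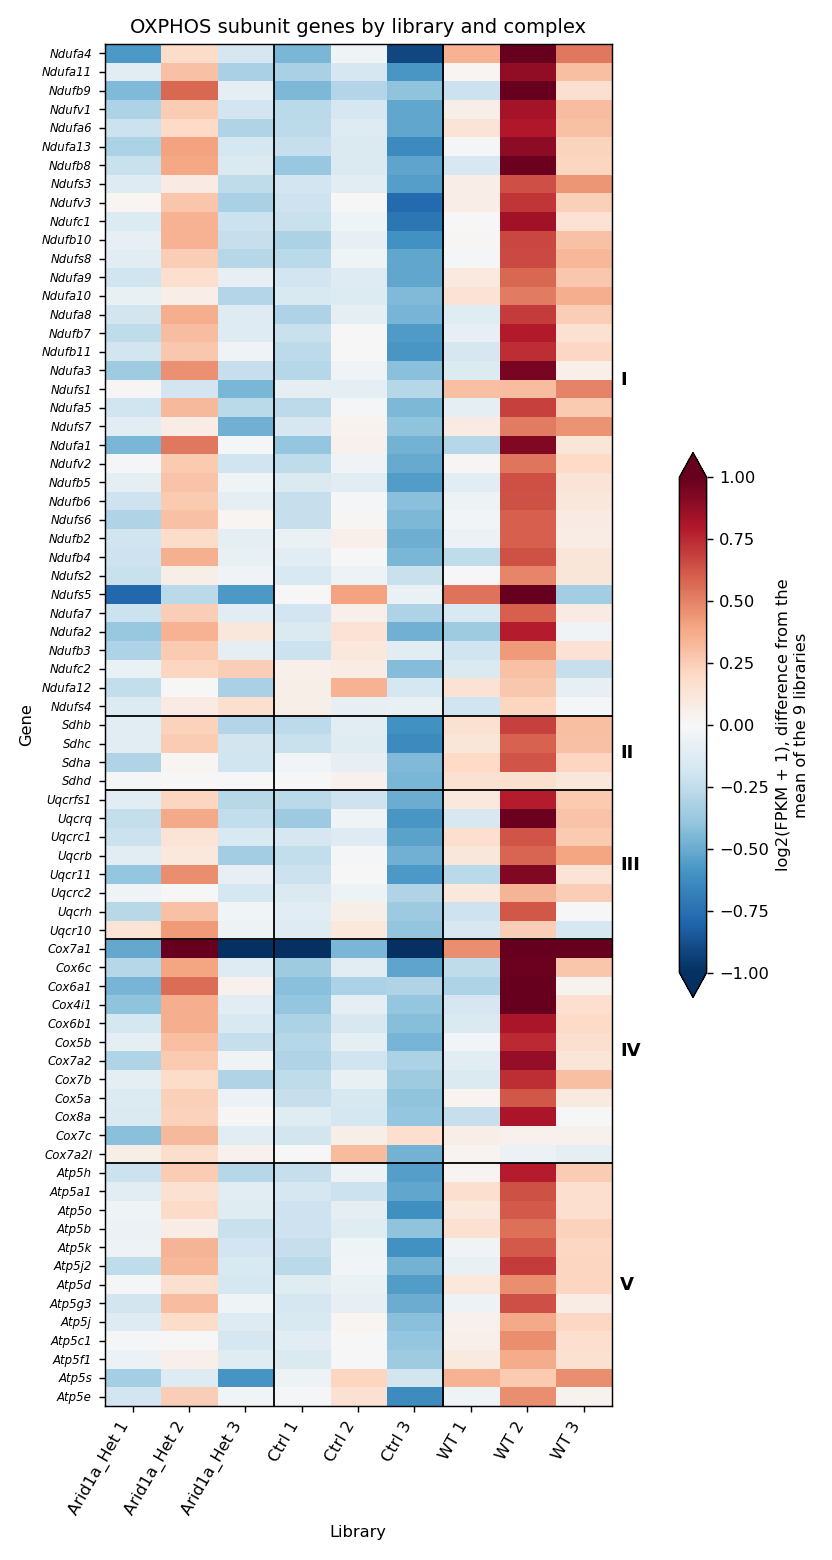
Heat map of the 73 subunit genes (rows, grouped by complex I to V at the right edge) in 9 libraries (columns). Colour gives log2(FPKM + 1) minus the gene's mean over the 9 libraries, from -1 in blue to 1 in red, with values beyond the scale drawn in the end colours. The WT 2 column is the reddest, being highest for 67 genes, and the Ctrl 3 column the bluest, being lowest for 61.

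The balance between complexes varied little next to the levels. Complex I genes held 28.6% to 30.5% of the FPKM summed over the 73 genes in the 9 libraries, complex II genes 3.94% to 5.60%, complex III genes 11.3% to 13.3%, complex IV genes 29.2% to 35.5% and complex V genes 18.9% to 23.3%. WT 2 had the highest share of complex IV, at 35.5%, with the lowest shares of complex II, at 3.94%, of complex III, at 11.3%, and of complex V, at 18.9%. These shares rest on FPKM, which divides by length, and the order of complexes differed by reads. In WT, complex V genes took a mean of 0.810% of reads, complex I genes 0.546%, complex IV genes 0.412%, complex III genes 0.249% and complex II genes 0.155%.

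Among paired isoforms a single form carried nearly all the signal. Cox6a2 and Cox7b2, the muscle and testis counterparts of Cox6a1 and Cox7b, were above 0 in WT 2 alone, at 0.0559 and 0.140 FPKM. Cox8b, another heart and muscle form, had at most 8 reads, Cox4i2, the hypoxia-linked form of Cox4i1, at most 8 reads, and Ndufa4l2 at most 7 reads. Cox6b2 had at most 24 reads and averaged 0.475 FPKM. The exception was Cox7a1, the heart and muscle isoform of subunit 7a, which is taken up below.

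The remaining genes under the minimum were Atp5g1, Atp5g2 and Atp5l of complex V. Atp5g1 and Atp5g2 encode the same ring-forming subunit c as Atp5g3, which had 252.5, 355 and 278 FPKM in Arid1a_Het, 255, 270.4 and 202 FPKM in Ctrl, and 277, 448 and 302 FPKM in WT. Near-identical copies limit what their levels mean: 100% of the Atp5g2 transcript, 72.2% of Atp5l and 69.0% of Atp5g1 matched transcripts of other genes at 95% identity or more, and how such reads were counted is not given in the sources used here. Of the 73 genes 11 had at least 50% of their transcript so matched, among them Ndufs5 and Cox7c, and their levels are uncertain. At the minimum itself, Atp5l stood just outside, with a third-highest library of 0.869 FPKM, and Cox7c just inside, with 1.48 FPKM. FPKM also divides by length: Atp5g1, under the minimum, had 70 to 210 reads per library, and Cox7c, above it, 25 to 63.

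The first comparison, Ctrl against WT, bears on the Cre and NICD transgenes. All 73 subunit genes had a lower mean log2 level in Ctrl than in WT, where 28.7% of the 11209 genes tested did. The median log2 fold change (log2FC, on the log2(FPKM + 1) scale, which understates changes of low genes) was -0.54, against 0.24 for all genes tested, a difference of -0.77. For 42 of the 73 genes every Ctrl library lay below every WT library, against 10.2% of all genes tested, and for 0 above, against 33.5%. Few single genes passed the test over all genes: 2 were called lower at an adjusted p under 0.05 in limma, against a background of 3.04%, and 0 higher, against 7.01%. At an unadjusted p under 0.05, 41 genes were lower, against 8.44% of all genes tested.

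The call count depended on whether libraries were treated as pairs. Ctrl and WT libraries with the same number had correlated deviations from their group means (0.207, 0.336 and 0.138). The labels give no pairing, so the block was chosen from these same values and its calls are no independent support. With the number as a block over the 9 libraries, 35 of the 73 genes were called lower, against 5.97% of all genes tested. That block also pairs Arid1a_Het libraries by number, though some of their correlations were under 0. With the block over Ctrl and WT alone, 24 were called lower, against 6.23%. Median-ratio scaling gave 3 calls lower, against 5.51%, and voom on whole reads 1, against 2.34%. WT 2 carried much of the size: without it, 67 of the 73 genes were still lower in mean, the median difference from all genes was -0.44 and 0 genes were called. Leaving out 1 library at a time gave 0 to 4 calls, with 0 in turn without Ctrl 1, Ctrl 2, Ctrl 3, WT 2 or WT 3, 1 without Arid1a_Het 1, and 4 without Arid1a_Het 2, Arid1a_Het 3 or WT 1. Without both libraries with pancreas markers, 0 genes were called and the median difference from all genes was -0.78.

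All 5 complexes had negative medians. The median log2FC was -0.53 for complex I, -0.60 for complex II, -0.57 for complex III, -0.57 for complex IV and -0.51 for complex V. Without WT 2 the medians were -0.34, -0.46, -0.37, -0.29 and -0.38 in the same order, the smallest change being that of complex IV. Ctrl and WT did not overlap for 18 of 36 genes of complex I, 4 of 4 of complex II, 4 of 8 of complex III, 5 of 12 of complex IV and 11 of 13 of complex V. With the block over Ctrl and WT alone the calls were 14, 2, 4, 2 and 2 in the order I to V, and with the block over 9 libraries 18, 3, 4, 3 and 7. No test of a difference between complexes was made.

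**Figure D2:**
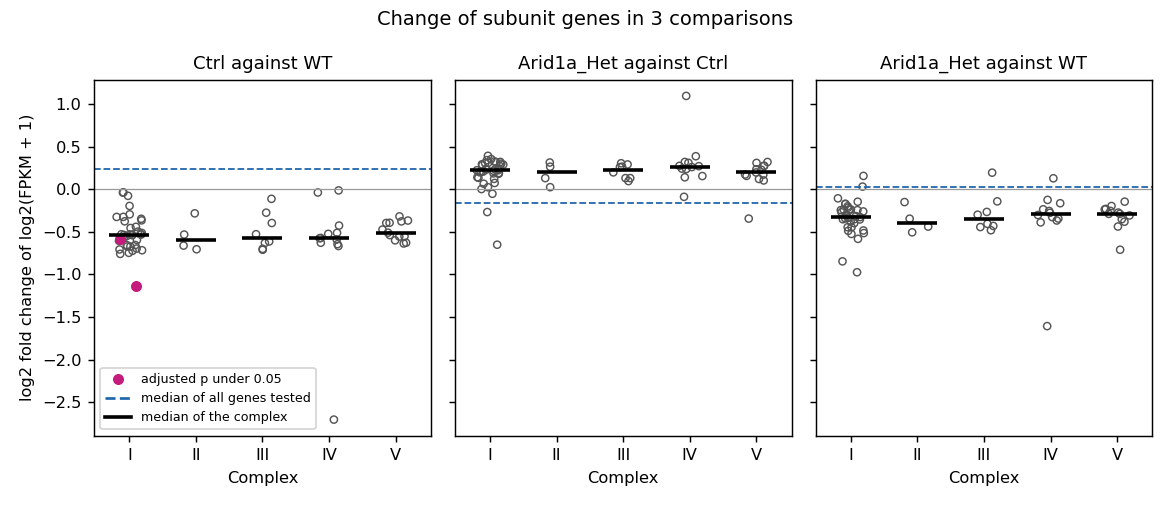
Log2FC on the log2(FPKM + 1) scale of each subunit gene (points) by complex in 3 comparisons, with the median of each complex as a black bar and the median of all 11209 genes tested as a dashed line. In Ctrl against WT all 73 points lie below 0 and below the dashed line at 0.24, and the filled points are the 2 genes called; Arid1a_Het against Ctrl and Arid1a_Het against WT have no filled point.

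The genes called lower were Ndufa4, which its name places in complex I though its product is now counted in complex IV, and Ndufa10. Ndufa4 (chromosome 6, 11900292 to 11907497, minus strand, GRCm38) had 92.8, 157 and 123 FPKM in Arid1a_Het and 101, 134 and 73.1 FPKM in Ctrl, against 176, 299.6 and 199.7 FPKM in WT. All Ctrl and all Arid1a_Het libraries were below all WT libraries. Its log2FC in Ctrl against WT was -1.13 (SE 0.29, adjusted p = 0.0399 in limma). The call held in 11 of 18 alternatives, in which the adjusted p ran from 0.00131 to 0.14. Ndufa10, an accessory subunit of complex I, had 41.7, 42.2 and 33.9 FPKM in Ctrl, against 51.5, 67.1 and 60.1 FPKM in WT, with no overlap. Its log2FC was -0.59 (SE 0.16, adjusted p = 0.0497 in limma), at the edge of the threshold, and the call held in 6 of 18 alternatives, in which the adjusted p ran from 0.0242 to 0.155.

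The 36 genes of complex I by name, Ndufa4 included, were all lower in mean, 18 of them without overlap. Ndufb9, an accessory subunit of the membrane arm and the complex I gene of highest level, had 291, 324 and 301 FPKM in Ctrl, against 342, 882 and 445 FPKM in WT, with log2FC -0.75 (SE 0.36, adjusted p = 0.177 in limma). The groups did not overlap, but WT 2 stood far above the other WT libraries. Ndufa1, another accessory subunit, had 151, 203 and 142 FPKM in Ctrl, against 162, 376 and 214 FPKM in WT, which overlapped. Ndufs4, Ndufa12 and Ndufc2 stood apart at the other end, with log2FC of -0.03, -0.04 and -0.08 and overlapping groups.

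Complex II, which also acts in the citric acid cycle, had all 4 subunits lower without overlap. Sdhb, the iron-sulphur subunit, had 68.1, 75.7 and 53.3 FPKM in Ctrl, against 91.0, 132 and 101 FPKM in WT (log2FC -0.70, SE 0.21, adjusted p = 0.06 in limma). Sdhc, a membrane anchor, had 76.6, 82.4 and 57.3 FPKM in Ctrl, against 97.5, 135 and 110.2 FPKM in WT. Sdha, the flavoprotein, had 116, 111 and 86.7 FPKM in Ctrl, against 135, 183 and 137 FPKM in WT. The other anchor, Sdhd, differed least, with 244, 252 and 178 FPKM in Ctrl, against 272, 273 and 264 FPKM in WT (log2FC -0.28, SE 0.16, adjusted p = 0.236 in limma).

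In complex III, Uqcrfs1, the Rieske iron-sulphur protein that takes electrons from coenzyme Q, had 154, 161 and 132 FPKM in Ctrl, against 200.2, 322 and 223 FPKM in WT (log2FC -0.71, SE 0.21, adjusted p = 0.0616 in limma). Uqcrc1, a core subunit, had 106, 109 and 82.1 FPKM in Ctrl, against 134, 185 and 143 FPKM in WT (log2FC -0.63, SE 0.18, adjusted p = 0.0581 in limma). Neither pair of groups overlapped. Uqcr10, a small subunit and the most abundant of complex III, had 303, 357 and 251 FPKM in Ctrl, against 296, 393 and 294 FPKM in WT, which overlapped.

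Among the structural subunits of complex IV, Cox5a had 442, 466 and 394 FPKM in Ctrl, against 529, 799 and 556 FPKM in WT (log2FC -0.51, SE 0.20, adjusted p = 0.119 in limma). Cox6a1 had 467, 504 and 509 FPKM in Ctrl, against 504, 1413 and 642 FPKM in WT. Cox4i1 had 431, 527 and 432 FPKM in Ctrl, against 502, 1143 and 632 FPKM in WT. Only Cox5a of these had groups that did not overlap, and for Cox6a1 and Cox4i1 WT 2 stood far above the other WT libraries. Cox7b and Cox8a had log2FC of -0.52 and -0.43, with overlapping groups. With 1 library left out, Cox7b ran from -0.74 to -0.30 and Cox8a from -0.64 to -0.11. In complex V, Atp5a1 had 490.2, 475 and 383 FPKM in Ctrl, against 620.1, 857 and 620 FPKM in WT (log2FC -0.63, SE 0.19, adjusted p = 0.066 in limma), and Atp5b had log2FC -0.55 (SE 0.17, adjusted p = 0.0714). Both sets of groups were apart, as for 11 of the 13 complex V genes.

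Cox7a1 had the most negative log2FC of the set. It had 27.5, 111 and 13.6 FPKM in Arid1a_Het and 8.16, 28.6 and 16.6 FPKM in Ctrl, against 54.8, 239 and 97.9 FPKM in WT. Ctrl libraries lay below all WT libraries and Arid1a_Het spanned both. Its log2FC in Ctrl against WT was -2.71 (SE 0.77), with an adjusted p of 0.0563 in limma, which missed the threshold, and of 0.00531 with the replicate block over 9 libraries. That block rests on these data alone and also pairs Arid1a_Het libraries by number. The call appeared in 6 of 18 alternatives. Cox7a2, the form found in most tissues, had 242, 259 and 239 FPKM in Ctrl, against 277, 550.1 and 324 FPKM in WT (log2FC -0.57). Cox7a1 thus made up 10.2%, 23.8% and 4.48% of the FPKM of Cox7a1 and Cox7a2 together in Arid1a_Het and 3.26%, 9.94% and 6.49% in Ctrl, against 16.5%, 30.3% and 23.2% in WT. Cox7a2l, the supercomplex factor of the same family, had 72.3, 78.5 and 71.3 FPKM in Arid1a_Het and 69.5, 86.4 and 49.8 FPKM in Ctrl, against 70.8, 66.6 and 65.1 FPKM in WT, with log2FC -0.01 in Ctrl against WT.

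**Figure D3:**
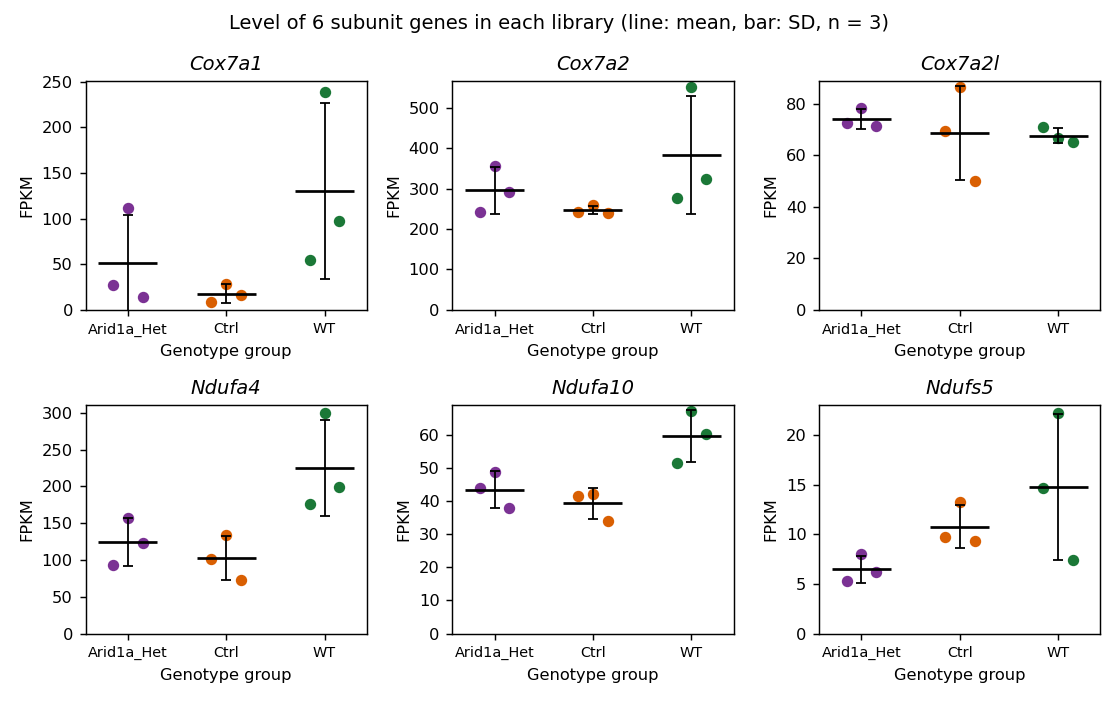
FPKM (vertical axes from 0) of Cox7a1, Cox7a2, Cox7a2l, Ndufa4, Ndufa10 and Ndufs5 in each library (points), with the group mean (line) and SD (bar, n = 3 libraries per group, cut at 0). Cox7a1, Cox7a2, Ndufa4 and Ndufa10 lie lower in every Ctrl library than in every WT library, Cox7a2l overlaps between Ctrl and WT, and Ndufs5 is lower in every Arid1a_Het library than in every Ctrl library.

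Cox7a1 went with the genes of the acid pump across libraries. Atp4a, the catalytic subunit of the gastric proton pump, had 690, 2557 and 184 FPKM in Arid1a_Het and 90.5, 470.1 and 406 FPKM in Ctrl, against 1234, 7584 and 2923 FPKM in WT. Atp4b, its beta subunit, had 510.1, 1861 and 133 FPKM in Arid1a_Het and 79.8, 427 and 272 FPKM in Ctrl, against 1241, 5304 and 2654 FPKM in WT. The libraries ranked alike on the 3 genes, except that 2 neighbouring pairs changed places. For each 100 FPKM of Atp4b, Cox7a1 had 10.2, 6.69 and 6.11 FPKM in Ctrl, against 4.42, 4.50 and 3.69 FPKM in WT, so that by group means Cox7a1 was lower in Ctrl by a smaller factor than Atp4b. Markers of striated muscle, where Cox7a1 is best known, were low: 8 of them summed to 0.965 to 1.77 FPKM in Arid1a_Het, 1.35 to 1.91 FPKM in Ctrl and 2.59 to 4.71 FPKM in WT. The sum, like Cox7a1, was highest in WT 2. Myl2 was at 0 in 8 libraries and Actc1 in 7. Only Myh7 was tested, with 0.894, 0.778 and 0.280 FPKM in Ctrl, against 1.82, 1.45 and 2.53 FPKM in WT. Tnnt2 went the other way, with 0.432, 0.529 and 0.859 FPKM in Ctrl, against 0.0611, 0.0196 and 0.0555 FPKM in WT. A part of muscle in the Cox7a1 values was not tested.

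Of 12 parietal cell markers, 10 had a lower mean log2 level in Ctrl than in WT, as the subunit genes did, and 2 a higher one. The 12 genes summed to 501 to 4971 FPKM in Arid1a_Het, 310 to 1148 FPKM in Ctrl and 2957 to 14348 FPKM in WT, with none at 0 in any library. Atp4a and Atp4b made up most of that sum. In Ctrl against WT 8 of the 12 were called lower, 10 had groups that did not overlap, and the median log2FC was -2.49. Kcnq1 and Aqp4 had log2FC of 0.08 and 0.20. Chief, pit and enteroendocrine markers also had negative medians, with 0 of 6, 3 of 6 and 4 of 6 genes called lower, and 3 of 9 leukocyte markers were called higher. The 4 mucous neck markers went the other way from the parietal list, with a median log2FC of 0.75, 3 higher in mean, 0 called in limma and 2 called higher with the block over Ctrl and WT alone. Without WT 2, 1 parietal, 2 pit and 3 enteroendocrine markers were called lower and 1 leukocyte marker higher. The part of cell makeup in the lower subunit levels was not tested. The highest shares of reads in subunit genes were in WT 2, Arid1a_Het 2, WT 3 and WT 1, at 2.77%, 2.01%, 1.98% and 1.77%. The same libraries had the highest parietal sums, 14348, 4971, 6397 and 2957 FPKM in that order. Ctrl 3, with the lowest share, had a parietal sum of 854 FPKM, and the lowest sum was 310 FPKM in Ctrl 1.

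**Figure D4:**
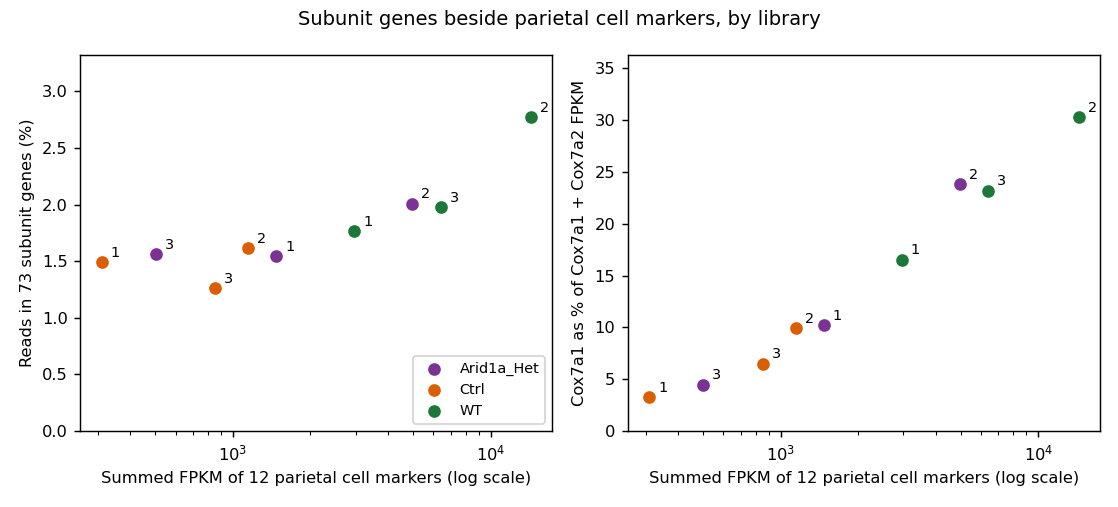
Each point is a library, coloured by genotype group and marked with its number; the horizontal log axis gives the summed FPKM of 12 parietal cell markers. The left vertical axis gives the percent of reads in the 73 subunit genes (1.26% to 2.77%), and the right one Cox7a1 as a percent of Cox7a1 and Cox7a2 FPKM (3.26% to 30.3%). WT 2 is at the top right of both.

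Gene length was set beside the result because WT 2 stood apart. The length behind each FPKM value, worked out from reads, had a median of 1486 bases for the subunit genes, against 3831 for other genes tested. This implied length can be longer than the main transcript, as for Ndufb2, so genes with short transcripts can fall in longer classes. Among genes with an implied length under 1000 bases, the 22 subunit genes had a median log2FC of -0.53 in Ctrl against WT. The 550 other genes had one of 0.31. In each of 4 classes of implied length all the subunit genes were lower in mean, while 25.1% to 33.8% of the other genes were.

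Promoter sequences are shown for the genes of lowest p or largest change, and for a pair that hold motifs of factors known to act on OXPHOS genes. The window runs from 250 bases before to 50 after the RefSeq start (GRCm38.p6), and 62 of the 73 genes had one. Cox7a1, Ndufa4 and Ndufa10 held none of the 4 motifs searched. Uqcrc1 held the NRF1 motif on both strands, overlapping, and Atp5g3 held the ERR motif, shown in capitals. The sequences are 5′ to 3′ on the gene's strand, at chr7:30183921-30184220 (plus), chr6:11907401-11907700 (minus), chr1:92473709-92474008 (minus), chr9:108936398-108936697 (plus) and chr2:73911277-73911576 (minus) in the order given.
Cox7a1: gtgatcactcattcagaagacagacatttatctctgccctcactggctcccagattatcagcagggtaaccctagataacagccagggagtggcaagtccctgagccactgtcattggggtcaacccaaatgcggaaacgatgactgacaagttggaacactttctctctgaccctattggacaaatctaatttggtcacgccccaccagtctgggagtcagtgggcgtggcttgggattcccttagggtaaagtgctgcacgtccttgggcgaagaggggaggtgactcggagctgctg
Ndufa4: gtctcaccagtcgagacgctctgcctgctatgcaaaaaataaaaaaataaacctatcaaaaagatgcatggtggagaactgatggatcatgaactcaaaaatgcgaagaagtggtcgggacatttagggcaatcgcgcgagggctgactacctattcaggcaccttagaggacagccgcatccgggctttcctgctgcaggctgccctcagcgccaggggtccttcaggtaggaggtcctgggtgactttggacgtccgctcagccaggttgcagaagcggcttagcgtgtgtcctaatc
Ndufa10: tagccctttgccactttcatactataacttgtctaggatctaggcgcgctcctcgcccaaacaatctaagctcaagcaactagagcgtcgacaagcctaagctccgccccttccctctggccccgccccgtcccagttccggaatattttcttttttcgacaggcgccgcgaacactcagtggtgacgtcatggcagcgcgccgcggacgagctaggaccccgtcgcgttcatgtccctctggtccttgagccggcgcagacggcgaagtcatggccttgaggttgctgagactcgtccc
Uqcrc1: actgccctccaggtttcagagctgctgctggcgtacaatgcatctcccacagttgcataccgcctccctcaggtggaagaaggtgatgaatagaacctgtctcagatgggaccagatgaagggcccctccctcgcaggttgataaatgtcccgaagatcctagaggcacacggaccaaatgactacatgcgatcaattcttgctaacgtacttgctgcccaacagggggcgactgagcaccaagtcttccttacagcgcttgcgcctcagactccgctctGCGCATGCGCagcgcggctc
Atp5g3: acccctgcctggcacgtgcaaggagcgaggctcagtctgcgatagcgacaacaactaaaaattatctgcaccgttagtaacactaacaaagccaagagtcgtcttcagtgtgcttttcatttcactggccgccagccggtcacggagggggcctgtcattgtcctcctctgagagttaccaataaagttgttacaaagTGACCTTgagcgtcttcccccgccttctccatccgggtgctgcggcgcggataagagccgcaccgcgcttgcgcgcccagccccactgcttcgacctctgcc

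Nuclear respiratory factor 1 (NRF1), the oestrogen-related receptors (ERR), YY1 and the ETS factors that include GABPA are known to act on many of these genes. On both strands, GCGCATG (NRF1) was in 11 of the 62 promoters (17.7%), against 4.41% of 27025 genes with a RefSeq promoter. ATGGCGG (YY1), which can overlap the NRF1 motif in its first letters, was in 10 (16.1%), against 4.69%. CCGGAAG (ETS) was in 15 (24.2%), against 9.93%, and AAGGTCA (ERR) in 7 (11.3%), against 5.38%. The 27025 genes were not filtered by expression, as the subunit genes were, and no set matched for expression was compared. A match describes letters in this window and not binding.

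The genes of those factors did not all go the same way in Ctrl. Of 14 regulators of mitochondrial genes tested, 3 were called lower in Ctrl than in WT and 0 higher. With the block over Ctrl and WT alone 4 were called lower and 1 higher, and without WT 2 none in either direction. Esrrg, an oestrogen-related receptor, had 2.26, 8.27 and 5.16 FPKM in Ctrl, against 23.0, 76.2 and 53.1 FPKM in WT (log2FC -3.02, SE 0.71, adjusted p = 0.0297 in limma). Perm1, a muscle regulator that acts with the coactivator PGC-1, had 0.0791, 0.287 and 0.228 FPKM in Ctrl, against 1.02, 3.15 and 2.81 FPKM in WT (log2FC -1.41, adjusted p = 0.019). Esrrb, a further receptor of that family, was called lower (log2FC -1.33, adjusted p = 0.0361), and Ppargc1a, the gene of PGC-1 alpha, was not (log2FC -1.05, adjusted p = 0.0593). Pprc1, a coactivator related to PGC-1, had 8.12, 6.39 and 9.80 FPKM in Ctrl, against 4.56, 1.65 and 4.68 FPKM in WT (log2FC 1.04, SE 0.35, adjusted p = 0.0853). Nrf1, Gabpa, Yy1 and Tfam had log2FC of 0.30, 0.20, 0.30 and 0.29, each short of the threshold. These 4 lay near the median of all genes tested, 0.24, so they did not stand out as higher in Ctrl. Esrra had -0.14. Esrrg, like Cox7a1, was highest in WT 2 and lowest in Ctrl 1.

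Other mitochondrial genes gave a scale for the subunits. All 13 genes of the citric acid cycle had a lower mean in Ctrl than in WT, with a median log2FC of -0.40, and 4 were called, or 1 without WT 2. Ogdh, of the 2-oxoglutarate dehydrogenase complex, had 108, 94.0 and 93.8 FPKM in Ctrl, against 227, 257 and 201 FPKM in WT (log2FC -1.20, SE 0.16, adjusted p = 0.00456 in limma). Also called were Cs, citrate synthase, with log2FC -0.64 (adjusted p = 0.019), and the fumarase Fh1, with log2FC -0.56 (adjusted p = 0.0334).

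Assembly factors, which build the complexes and are no part of them, had medians nearer 0 than the subunit genes. All 5 lists still lay below the median of all genes tested. Their differences from it were -0.29, -0.35, -0.43, -0.49 and -0.38 in the order I to V, against -0.77 for the subunit genes. Of 14 such genes for complex I, 0 were called, 8 were lower and 6 higher in mean, and the median log2FC was -0.05; 0 passed an unadjusted p under 0.05, and 0 were called with either block. Of 19 for complex IV, 0 were called, 15 were lower and 4 higher in mean, and the median was -0.25; 5 were lower at an unadjusted p under 0.05, 1 was called with the block over Ctrl and WT alone, and 3 with the block over 9 libraries. In the complex IV list, Taco1, an activator of cytochrome oxidase translation, had log2FC -0.47 (adjusted p = 0.0617). Medians were -0.11 over 3 genes for complex II, -0.20 over 5 for complex III and -0.15 over 3 for complex V. Of 12 genes for membrane pores, carriers and import, the ADP/ATP carrier Slc25a5 was called (log2FC -0.70, adjusted p = 0.0288), and the list median was -0.15. The 7 genes listed as subunits and carriers outside the name rule, such as cytochrome c1 (Cyc1, log2FC -0.42), had a median of -0.30. Of these, 0 were called and 3 were lower at an unadjusted p under 0.05. With the block over Ctrl and WT alone 0 were called, and with the block over 9 libraries 1. The list also holds Atpif1, an inhibitor of complex V, and 1110008P14Rik, 1 of those 3, whose place in OXPHOS was not checked. No test of a difference between lists was made.

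**Figure D5:**
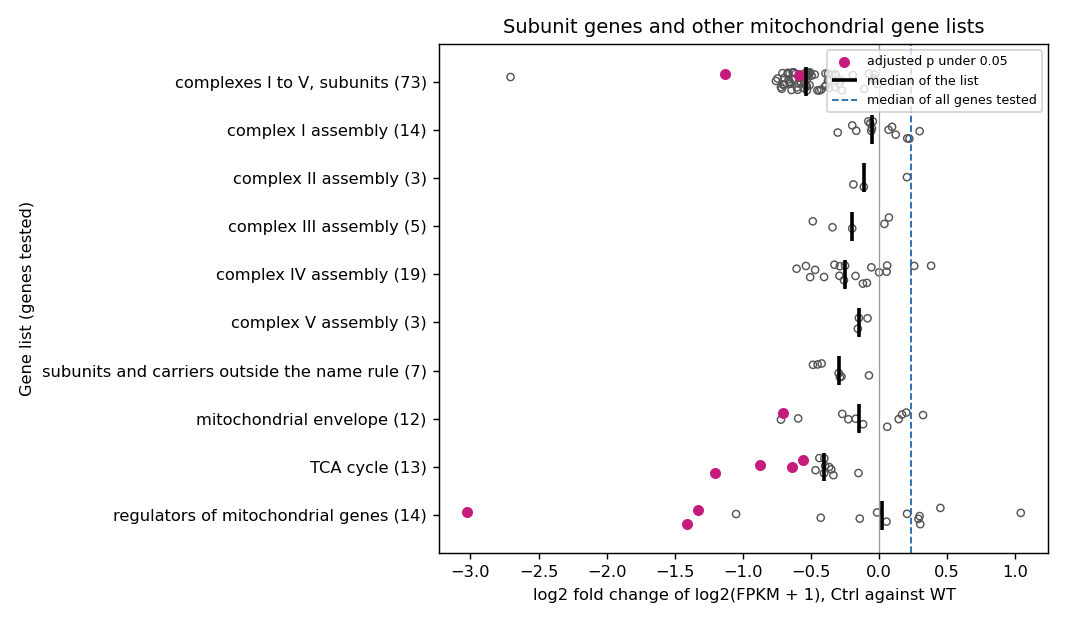
Log2FC of Ctrl against WT on the log2(FPKM + 1) scale for the 73 subunit genes and 9 other mitochondrial lists, with the number of genes tested in brackets. Points are genes, filled where called, black bars list medians and the dashed line the median of all genes tested (0.24). The subunit median is at -0.54, the citric acid cycle median at -0.40 and the complex I assembly median at -0.05.

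Arid1a_Het against Ctrl bears on the floxed Arid1a allele, since both groups carry the transgenes. None of the 73 subunit genes was called in limma, against a background of 0.00892% lower and 0% higher among all genes tested, and 0 passed an unadjusted p under 0.05, where 10.5% of all genes did so lower and 1.15% higher. As a set, 68 of 73 had a higher mean in Arid1a_Het, where 27.5% of all genes did, and the median log2FC was 0.23, against -0.16 for all genes. In the same comparison 12 of 12 parietal markers (median log2FC 0.85), 6 of 6 pit markers (0.60) and 5 of 6 chief markers (0.48) were higher in mean, 4 of 4 mucous neck markers (-0.50) and 8 of 9 leukocyte markers (-0.43) were lower, and none was called. Their part in the subunit values was not tested. Without Arid1a_Het 2 the median difference of the subunit genes from all genes was 0.17 in place of 0.40. The medians by complex were 0.23 for I, 0.20 for II, 0.23 for III, 0.27 for IV and 0.20 for V. Arid1a_Het was above Ctrl without overlap for Atp5a1, Cox5a and Ndufb5, 3 of 73 genes, against 2.41% of all genes tested.

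Against that direction, Ndufs5, an accessory subunit of complex I, had 5.28, 7.97 and 6.24 FPKM in Arid1a_Het, 9.74, 13.2 and 9.29 FPKM in Ctrl, and 14.7, 22.2 and 7.46 FPKM in WT. Every Arid1a_Het library was below every Ctrl library, which held for 1 of the 73 genes and 22.2% of all genes tested. Its log2FC was -0.65 (SE 0.33, adjusted p = 0.458 in limma), and 60.8% of its transcript matched other transcripts, so its level is uncertain. Atp5s and Sdhc, next by p, had log2FC of -0.34 (adjusted p = 0.466) and 0.32 (adjusted p = 0.526). Cox7a1 had log2FC 1.10 (SE 0.77, adjusted p = 0.567), with Arid1a_Het 2 far above the other Arid1a_Het libraries.

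Arid1a_Het against WT gave 0 called subunit genes in limma, against 0.687% of all genes tested called lower and 2.06% higher. At an unadjusted p under 0.05, 11 of the 73 were lower, against 7.38% of all genes, and 0 higher, against 9.81%. In mean 69 of 73 were lower, where 46.6% of all genes were, and the median log2FC was -0.31, against 0.02 for all genes. The groups did not overlap for 14 of 73 lower, against 8.57%, and for 1 higher, Cox7a2l, against 10.6%. Without WT 2 the median difference from all genes was -0.04 in place of -0.33, with 56 lower and 17 higher in mean. This comparison shares its WT libraries with Ctrl against WT and its Arid1a_Het libraries with Arid1a_Het against Ctrl.

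By p the leading genes were Atp5s, Ndufs1 and Ndufa4. Atp5s had 2.70, 3.28 and 2.11 FPKM in Arid1a_Het, 3.50, 4.43 and 3.11 FPKM in Ctrl, and 4.96, 4.60 and 5.45 FPKM in WT. Arid1a_Het lay below WT without overlap, with log2FC -0.71 (SE 0.18, adjusted p = 0.0749 in limma), and it was called without Arid1a_Het 2 (adjusted p = 0.0412). Ndufs1, a core iron-sulphur subunit of complex I, had 25.3, 21.9 and 18.0 FPKM in Arid1a_Het, 23.3, 23.5 and 20.3 FPKM in Ctrl, and 31.1, 31.3 and 35.8 FPKM in WT. Arid1a_Het and Ctrl both lay below WT, and against WT the Arid1a_Het log2FC was -0.58 (SE 0.15, adjusted p = 0.0844 in limma). Ndufa4 had log2FC -0.85 (SE 0.29, adjusted p = 0.165).

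Over the 3 groups, 64 of the 73 genes had their mean log2 level highest in WT, between in Arid1a_Het and lowest in Ctrl. Ndufs1, Ndufs5, Ndufa12, Atp5s and Cox7c were lowest in Arid1a_Het. Ndufc2, Uqcr10, Ndufs4 and Cox7a2l were highest in Arid1a_Het. In limma without a block, the differences past the threshold among these groups were those of Ndufa4 and Ndufa10 in Ctrl against WT, so no gene's neighbours in the order differed by the test.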

How the data were processed

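Per the labels' protocols, poly(A) RNA of corpus glands was made into stranded mRNA libraries. The submitters' processing notes name STAR 2.4.2a and the builds GRCm38 and mm10. The authors deposited FPKM values for 18423 genes in 9 libraries. The tool that made them is not given in the sources used here. Every value was a whole multiple of the worth of 1 read in its library (tolerance 0.01), which gave reads for depth, shares and an alternative test. Reads were the smallest whole numbers that fit, so they may be too low for genes above 0 in few libraries.

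Groups came from the genotype labels. Values as log2(FPKM + 1) were fitted with limma 3.58.1 under R 4.3.3, by lmFit and trended eBayes, with 3 group means over the 9 libraries. Benjamini-Hochberg adjustment ran over 11209 genes, those that reached 1 FPKM in 3 or more libraries, and 7214 were left out. The fit was also run on simulated data with known changes. Noise there was drawn for each gene on its own, so the run does not bear on shifts that many genes of a library share. The main fit held no pairing. Same-numbered Ctrl and WT libraries had correlated deviations from their group means (0.207, 0.336 and 0.138, each over 0.1). They were taken as pairs in alternative fits only, on the data alone. For Arid1a_Het libraries some correlations with Ctrl and WT were under 0, but the alternative block over 9 libraries still paired them by number.

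The members and gene lists, including the cell type markers, were chosen with earlier results of these data known. The genes named were, in each complex, the 2 of lowest p and the 2 of highest level in Ctrl against WT, the tissue isoforms, the 3 of lowest p in the other comparisons, and up to 4 genes of lowest p of a related list; others were added after their values were seen. A gene that this rule names in a related list is not reported here. Genes set beside them as contrasts (Ndufs4, Ndufa12, Ndufc2, Pprc1, Nrf1, Gabpa, Yy1, Tfam, Esrra, Kcnq1, Aqp4, Ndufb5) were among those added. Positions come from GENCODE M21 on GRCm38. Transcripts were compared with blastn 2.17.0, at 95% identity. Python 3.11.15 with pandas 2.3.3, numpy 2.4.6 and matplotlib 3.10.9 was used for the rest.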

Additional observations from a re-analysis of the deposited data

How the results depend on the processing

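Tried were other pseudocounts and filters, median-ratio scaling, a fit of the compared groups alone, the replicate block, voom on reads, dropping both libraries with pancreas markers, and dropping each library. In Ctrl against WT the 2 genes called lower became 1 with a pseudocount of 0.1, with a minimum FPKM of 5 or with voom, 0 with no filter or without Ctrl 1 and Arid1a_Het 3, 3 with scaling, 35 with the replicate block and 24 with the replicate block over Ctrl and WT only, which was chosen after seeing the data. With 1 library left out the count ran from 0 to 4. In Arid1a_Het against WT the 0 genes called lower became 1, Ndufa4 (adjusted p = 0.0353), with the replicate block, where the numbers pair no libraries and Arid1a_Het libraries did not all correlate best with their own number, and ran from 0 to 1 with 1 library left out. Counts of genes called higher, and both counts in Arid1a_Het against Ctrl, stayed at 0 in every alternative run. The cause of these shifts was not tested. Across all genes, Ctrl against WT gave 341 calls lower and 786 higher on FPKM as deposited, 618 and 618 with scaling, and 262 and 625 with voom. Scaling took the median log2FC of all genes to 0.01 and that of the subunit genes to -0.80. Of the single genes named, Uqcr10 in Ctrl against WT (-0.11) ran from -0.23 to 0.027 with 1 library left out, turning to 0.018 without Ctrl 3 and 0.027 without WT 2. Cox7a2l (-0.01) ran from -0.19 to 0.20, turning to 0.20 without Ctrl 3 and 0.023 without WT 1. With 3 libraries a group, an exact permutation test cannot go below 0.1.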
